A study of Mus musculus with 4 samples.

Results

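The genes described here are 10 transporters of short-chain fatty acids and ions in the mouse caecum. They were chosen by name from 22180 genes on Affymetrix arrays. Earlier results of these data were known at that choice, so counts set beside all genes are descriptive. They are the fatty acid carriers Slc5a8 and Slc16a1, the sodium-proton exchangers Slc9a2 and Slc9a3, the anion exchangers Slc26a2 and Slc26a3, the sodium channel subunits Scnn1a and Scnn1b, the proton pump subunit Atp12a and the chloride channel Cftr. Each of the 10 genes had 1 probe set that named it alone, and 0 probe sets named it together with another gene.

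Each of 4 groups was 1 array. The groups were apoE KO mice with prebiotics, apoE KO mice without them, wild-type (WT) mice with prebiotics and WT mice without them. The strain was C57Bl/6 and the age 21 weeks in every group, and all 4 groups, the WT mice without prebiotics included, ate an n-3 PUFA depleted-diet. The prebiotic was Orafti P95, given daily at 250 mg a mouse during the final 15 days. Each array carried 100 ng of RNA pooled from 6 mice picked for RNA quality. One array of a pool shows no spread between mice or between pools of a group. Prebiotic p-values below rest on the gap between the KO and WT pair differences. Genotype p-values without a diet block rest on the gap between the arrays of a genotype. In each fit limma also moves the variance of a gene toward a value drawn from all genes tested.

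The diet of the WT arrays is contradicted within the labels. On each WT array 3 fields (title, source name and treatment) name one diet and 1 field (description) names the other. The WT arrays are called here by their titles, "WT titled with" and "WT titled without". For the KO arrays all 4 fields name the same diet.

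Gut bacteria ferment fibre to acetate, propionate and butyrate, and the large bowel takes these acids up together with sodium, chloride and water. Carriers bring the acids in with sodium (Slc5a8, also known as SMCT1) or with a proton (Slc16a1, also known as MCT1). Paired exchange of sodium for protons and of chloride for bicarbonate at the luminal membrane absorbs salt, the epithelial sodium channel absorbs sodium alone, and Cftr secretes chloride.

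Values are on a log2 scale after RMA, where 1 unit is a 2-fold difference. They compare 1 gene between arrays and do not rank genes against each other. The median of all probe sets was between 2.92 and 2.93 on the 4 arrays. Across probe sets, pairs of arrays had a Pearson's r between 0.984 and 0.988. Apoe, the gene deleted in the KO mice, had 3.13 and 2.83 in KO with and without prebiotics, against 4.09 and 3.90 on the WT arrays titled with and without. Whether its probe set lies in the deleted part is not known here. A gene was tested if it reached the median of the single-gene probe sets on at least 1 array. That limit was between 2.99 and 3.01, and 13083 genes passed. Among the 10 transporters 9 were tested. Atp12a was below the limit on all 4 arrays.

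With prebiotics, 3 of the 9 tested transporters rose over both genotypes, with the WT arrays taken by title: the butyrate carrier Slc5a8, the chloride-bicarbonate exchanger Slc26a3 and the sodium-proton exchanger Slc9a3. Over all 13083 genes 0.994% were called higher and 0.26% lower at an adjusted p under 0.05, and 0 of the 9 transporters were called lower. The median difference of the 9 was 0.26, beside 0.02 over all genes tested. In the KO pair, 8 of the 9 tested were higher with prebiotics, beside 55.8% of all genes tested, and in the WT pair 8 of the 9 were higher on the array titled with, beside 53.1% of all genes. Of the 9 tested, 7 were higher in both pairs, which held for 34.1% of all genes tested, and 0 were lower in both, against 25.1% of all genes. These results rest on the titles of the WT arrays. With the WT pair exchanged, as the descriptions have it, limma called 0 of 13083 genes, of which 170 had an unadjusted p under 0.05, and none of the 3 transporters kept its sign.

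**Figure D1:**
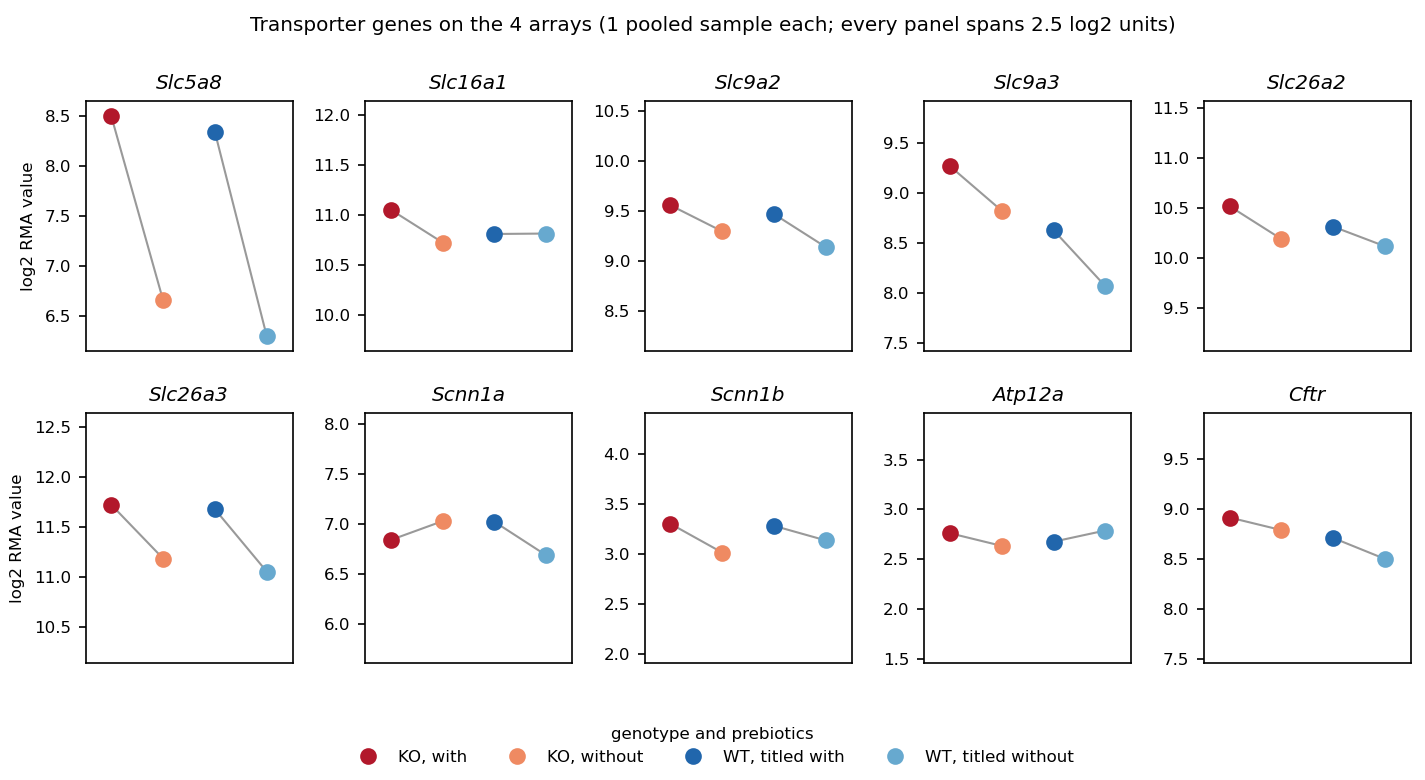
Log2 RMA value (y axis) of each of the 10 transporter genes on the 4 arrays. Points are single arrays of pooled RNA, ordered KO with prebiotics, KO without, WT titled with and WT titled without, and grey lines join the arrays of a genotype. Every panel spans the same 2.5 log2 units, and Slc5a8 has the steepest lines, at 8.50 against 6.65 in KO and 8.34 against 6.30 in WT.

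Slc5a8 carries butyrate and other short-chain acids, lactate and nicotinate into the epithelial cell with sodium. It had 8.50 in KO mice with prebiotics, against 6.65 in KO mice without. In WT mice it had 8.34 on the array titled with prebiotics, against 6.30 on the array titled without. Both arrays with prebiotics lay above both without, and the 2 genotypes were close within each diet. The difference was 3.59-fold in KO and 4.12-fold in WT. Over both genotypes Slc5a8 rose by a log2 difference of 1.94 (SE 0.11, 95% interval 1.70 to 2.18, limma adjusted p = 0.0001). Ordered from the highest difference down, it stood at place 8 of 13083 genes. It was also the single member of the 10 with at least a 2-fold difference in either pair. At that limit 0.475% of 12216 genes were higher and 0.139% lower in the KO pair, and 0.335% of 12223 genes were higher and 0.18% lower in the WT pair.

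Slc16a1 moves monocarboxylates such as butyrate and lactate together with a proton. It had 11.05 in KO mice with prebiotics, against 10.73 in KO mice without. On the WT arrays titled with and without it had 10.81 and 10.82. It was thus higher on the KO prebiotic array, and the other 3 arrays were close to each other. Its difference over both genotypes was 0.16 (95% interval -0.01 to 0.33, limma adjusted p = 0.387), which did not pass.

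Slc26a3, also known as DRA, exchanges luminal chloride for bicarbonate, and its loss in people causes congenital chloride diarrhoea. It had 11.72 in KO mice with prebiotics, against 11.19 in KO mice without. In WT it had 11.68 on the array titled with prebiotics, against 11.06 on the WT array titled without. The arrays with prebiotics lay above those without, with no overlap. The rise over both genotypes was 0.58 (SE 0.05, 95% interval 0.47 to 0.69, limma adjusted p = 0.000808). Without the trend of variance on level in limma the adjusted p of Slc26a3 was 0.154.

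Slc26a2, a sulfate transporter, had 10.52 in KO mice with prebiotics, against 10.19 in KO mice without. On the WT arrays titled with and without it had 10.31 and 10.12. The order of the 4 arrays was that of Slc26a3, with no overlap, and the step was smaller. Its difference of 0.26 (95% interval 0.12 to 0.40, limma adjusted p = 0.0901) did not pass the adjusted threshold.

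Slc9a3, also known as NHE3, is a main route of sodium absorption at the brush border. It had 9.27 in KO mice with prebiotics, against 8.82 in KO mice without. In WT it had 8.63 on the array titled with prebiotics, against 8.07 on the WT array titled without. Here the diets overlapped, because both KO arrays lay above both WT arrays. Within each genotype the array with prebiotics was higher, by 1.36-fold in KO and 1.47-fold in WT. Over both genotypes Slc9a3 rose by 0.50 (SE 0.08, 95% interval 0.31 to 0.69, limma adjusted p = 0.0242). The adjusted p of Slc9a3 in limma was 0.055 with no filter on low values and 0.196 without the trend.

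Slc9a2, also known as NHE2, is a second exchanger of the luminal membrane. It had 9.56 in KO mice with prebiotics, against 9.29 in KO mice without. On the WT arrays titled with and without it had 9.47 and 9.14. The arrays with prebiotics were again the higher ones in both genotypes, with no overlap. The difference was 0.30 (95% interval 0.13 to 0.46, limma adjusted p = 0.0969), which did not pass. Counting the sodium channel subunit Scnn1b, 5 of the 9 tested transporters had both arrays with prebiotics above both without, which held for 25.5% of all genes tested.

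The other 4 genes were not called. Scnn1a, the alpha subunit of the epithelial sodium channel, had 6.84 in KO mice with prebiotics, against 7.03 in KO mice without. On the WT arrays titled with and without it had 7.02 and 6.69. The 2 pairs ran in opposite directions, and the mean difference was 0.07 (95% interval -0.24 to 0.39, limma adjusted p = 0.881). Scnn1b, the beta subunit, had 3.30 in KO mice with prebiotics, against 3.01 in KO mice without, and 3.28 and 3.13 on the WT arrays titled with and without. These values lie next to the limit for testing, so RMA would compress a difference there, and the one found was 0.22 (95% interval -0.09 to 0.52, limma adjusted p = 0.539).

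Cftr, the chloride channel opened by cyclic AMP, had 8.92 in KO mice with prebiotics, against 8.79 in KO mice without. In WT it had 8.71 on the array titled with prebiotics, against 8.50 on the WT array titled without. The higher array of each pair was the one with prebiotics, by less than for Slc9a3, and the difference was 0.17 (95% interval -0.02 to 0.35, limma adjusted p = 0.416). Atp12a, the catalytic subunit of the colonic proton-potassium pump, had 2.76 in KO mice with prebiotics and 2.64 in KO mice without. It had 2.68 and 2.79 on the WT arrays titled with and without. All of these lie below the array median, so Atp12a was not measurable above background and no difference is drawn from it.

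The promoters of the 3 transporters called higher with prebiotics are shown, although for Slc9a3 the diets overlapped on the 4 arrays. Of the 10 genes, 6 were covered from a RefSeq promoter table of build GRCm38.p6. Entries on the chromosome of Slc26a2 had been dropped before this count, so Slc26a2 is not described. Each sequence is the 250 bases before 1 annotated start, on the plus strand, 5′ to 3′. For Slc9a3 and Slc26a3 that start is not the outermost one of the gene. Capitals mark matches, on either strand, to 4 motifs chosen after the sequences had been seen: the GC box GGGCGG (bound by Sp1-type factors), TATAAA (the TATA box), GTTAAT (the core of the site of HNF1, an epithelial factor) and TTTATG (CDX factors of the intestine).
Slc5a8, chr10:88885742-88885991: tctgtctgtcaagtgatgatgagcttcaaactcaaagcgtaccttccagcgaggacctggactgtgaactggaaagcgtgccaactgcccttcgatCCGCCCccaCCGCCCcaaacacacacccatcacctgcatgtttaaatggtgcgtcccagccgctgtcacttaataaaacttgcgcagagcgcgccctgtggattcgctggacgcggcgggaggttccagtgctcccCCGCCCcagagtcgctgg
Slc26a3, chr12:31437969-31438218: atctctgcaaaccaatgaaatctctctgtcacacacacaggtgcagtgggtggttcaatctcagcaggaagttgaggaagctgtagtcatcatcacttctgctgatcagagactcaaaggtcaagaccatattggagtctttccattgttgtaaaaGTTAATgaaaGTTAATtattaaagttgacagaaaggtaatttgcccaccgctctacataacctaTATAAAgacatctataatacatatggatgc
Slc9a3, chr13:74121163-74121412: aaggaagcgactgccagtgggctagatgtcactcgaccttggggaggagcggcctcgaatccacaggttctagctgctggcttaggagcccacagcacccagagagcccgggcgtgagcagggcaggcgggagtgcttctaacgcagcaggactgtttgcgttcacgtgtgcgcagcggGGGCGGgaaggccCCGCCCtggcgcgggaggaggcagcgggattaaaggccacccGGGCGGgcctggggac
Slc5a8 and Slc9a3 each held 3 GC boxes and 0 of the other motifs, with G and C making up 58.8% and 67.6% of the bases. Slc26a3 held 0 GC boxes, 1 TATAAA that begins 30 bases before the start and 2 HNF1 cores that begin 94 and 84 bases before it, in a sequence of 38.8% G and C. No marked matches overlapped in these 3 sequences, and none of the 4 motifs was shared by all 3 windows. Of all 32851 promoters in the table, 32.7% held a GC box, 12.4% TATAAA, 10.8% TTTATG and 6.43% the HNF1 core. The uncalled members covered, Slc16a1, Scnn1b and Cftr, held 1, 1 and 6 GC boxes. Of those of Cftr, 3 overlap (they begin 192, 188 and 184 bases before the start).

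**Figure D2:**
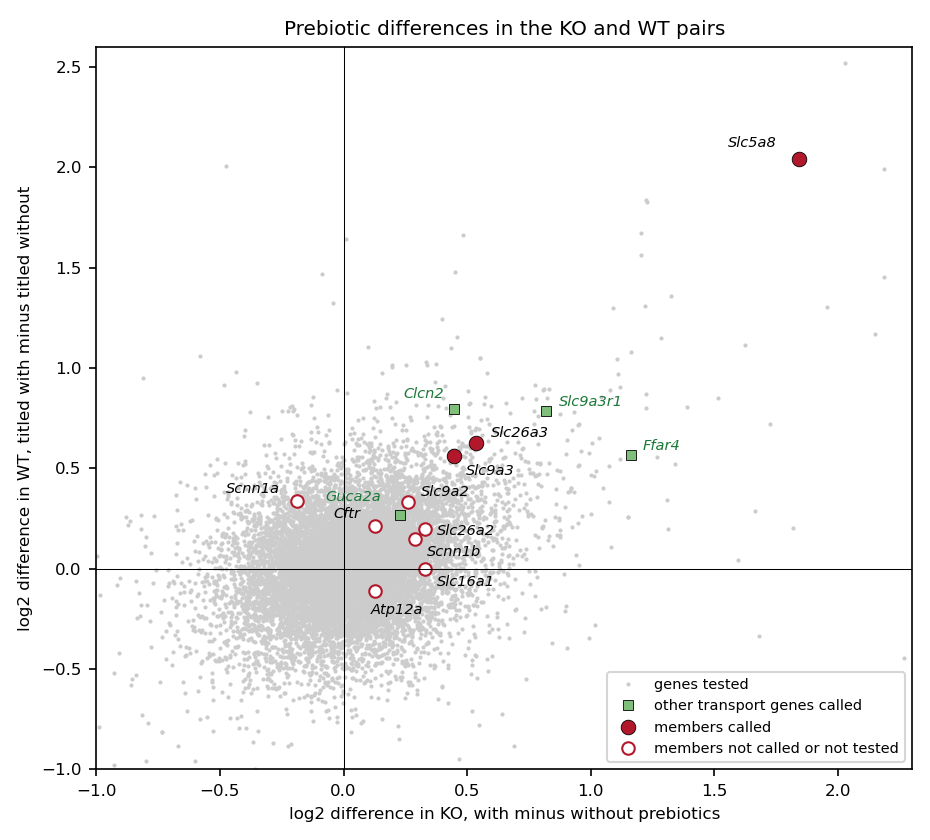
Log2 difference with minus without prebiotics in KO (x axis) and titled with minus titled without in WT (y axis), 1 point per gene. Grey points are 13037 of the 13083 tested genes (46 lie outside the axes), filled circles the 3 transporters called, open circles the other 7 and squares the other transport genes called. Slc5a8 lies far out at 1.84 and 2.04, Slc9a3 and Slc26a3 between 0.45 and 0.62 on both axes, and the others near the edge of the grey cloud or within it.

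The genes whose centred values lay nearest to those of Slc5a8, by root-mean-square distance over the 4 arrays, were Nts, Slc3a1, Alpi, Gcg and Mal. Neurotensin (Nts), a gut peptide, lay at a distance of 0.16 log2 units and had 6.66 and 4.47 in KO with and without prebiotics, against 6.52 and 4.53 on the WT arrays titled with and without. Slc3a1, which carries cystine and basic amino acids with a partner subunit, lay at 0.18. Alpi, the intestinal alkaline phosphatase, lay at 0.24, proglucagon (Gcg), the precursor of glucagon-like peptides, at 0.27 and the membrane protein Mal at 0.28. With 4 arrays such a likeness describes the arrays alone.

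Around the 10 transporters, 8 lists of other genes of fatty acid and ion transport were examined. They held 74 entries, of which 67 had a single-gene probe set and 56 were tested. In limma 4 of the 56 rose with prebiotics and 0 fell, beside 0.994% called higher and 0.26% called lower of all genes tested. The 4 were Slc9a3r1, Ffar4, Clcn2 and Guca2a. With the WT pair exchanged 0 of these 4 were called, and without the trend in limma 0 of them were called either.

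Slc9a3r1, also known as NHERF1, is a scaffold that binds Slc9a3 and Cftr at the luminal membrane. It had 9.14 in KO mice with prebiotics, against 8.32 in KO mice without. In WT it had 8.98 on the array titled with prebiotics, against 8.19 on the WT array titled without. The diets did not overlap and the step was alike in both genotypes, with a rise of 0.80 (SE 0.08, limma adjusted p = 0.00251). Without the trend the limma adjusted p of Slc9a3r1 was 0.0699. In the same list 1 of 8 tested genes was called and the list median was 0.16, with the scaffold Pdzd3 at 0.56, the exchanger Slc9a8 at 0.28 and the exchanger cofactor Chp2 at 0.24, all uncalled. The uncalled exchanger Slc9a4 and the scaffold Slc9a3r2 had -0.046 and -0.0039.

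Clcn2, a chloride channel, had 8.86 in KO mice with prebiotics, against 8.42 in KO mice without, and 8.97 and 8.17 on the WT arrays titled with and without. It rose by 0.62 (SE 0.10, limma adjusted p = 0.0223), the 1 call among 13 genes listed for chloride and potassium transport. The adjusted p of Clcn2 in limma was 0.055 with no filter on low values and 0.172 without the trend. That list's median was -0.0032, and its uncalled members went both ways: the calcium-activated chloride channel Ano1 had -0.59, the bestrophin Best2 -0.41, the potassium channel Kcnma1 -0.30 and the basolateral potassium channel Kcnq1 0.28. Slc12a2, which loads chloride for secretion, had -0.12.

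Guca2a, guanylin, which restrains sodium absorption through the receptor Gucy2c, had 11.82 in KO mice with prebiotics, against 11.59 in KO mice without, and 11.81 and 11.55 on the WT arrays titled with and without. Its rise of 0.25 (SE 0.04, limma adjusted p = 0.0275) was the 1 call among 5 genes of this axis. The adjusted p of Guca2a in limma was 0.057 with the filter at the 75th percentile and 0.448 without the trend. Gucy2c had 0.27 and the kinase Prkg2, which acts downstream of it, 0.31, both uncalled. The median of the guanylin genes was 0.26.

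Of 6 fatty acid receptors listed 3 were tested and 1 was called. That one, Ffar4, responds to long-chain and not to short-chain fatty acids. It had 4.81 in KO mice with prebiotics, against 3.64 in KO mice without, and 4.32 and 3.75 on the WT arrays titled with and without. Its rise was 0.86 (SE 0.17, limma adjusted p = 0.0473). The adjusted p of Ffar4 in limma was 0.104 with no filter, 0.0754 with the filter at the 75th percentile and 0.142 without the trend. The short-chain fatty acid receptors Ffar2 and Ffar3 were below the limit for testing, with values between 2.64 and 2.87 and between 2.65 and 2.85.

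In 4 other lists 0 genes were called by limma, although 4 of the 10 genes around the sodium channel and 1 of the 6 anion exchangers and bicarbonate carriers had an unadjusted p under 0.05, as did 13.8% of all genes tested. The 8 tested carriers of monocarboxylates and their partners had a median of -0.02, and the basigin gene (Bsg), whose product brings Slc16a1 to the membrane, had -0.09. The 6 tested anion exchangers and bicarbonate carriers had a median of 0.09, led by the sodium bicarbonate cotransporter Slc4a4 at 0.31. The 10 genes around the sodium channel had a median of -0.07. Among these the deubiquitinase Usp2 had 0.62 and the kinase Sgk1, which keeps the channel at the surface, 0.38, while Hsd11b2, which protects the mineralocorticoid receptor from glucocorticoids, had -0.30 and the gamma subunit Scnn1g -0.19. The 3 tested subunits of the sodium-potassium pump and FXYD genes had a median of -0.05, with the pump subunit Atp1b1 at -0.07.

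**Figure D3:**
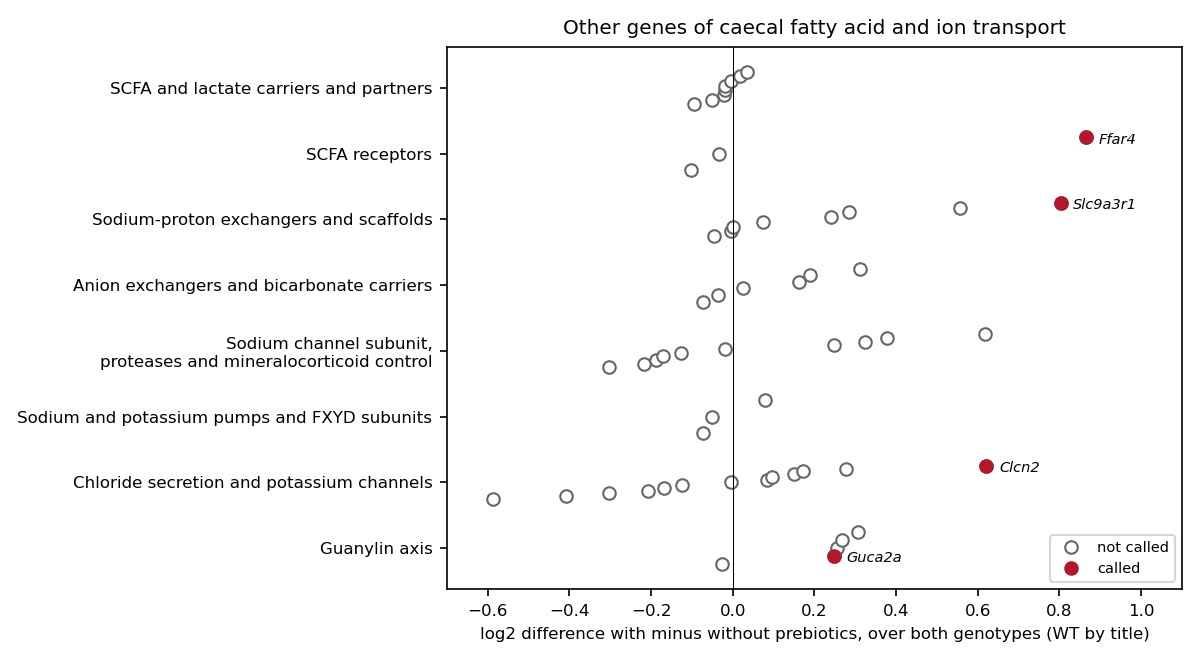
Log2 difference with minus without prebiotics over both genotypes (x axis) for the 56 tested genes of the 8 transport lists (rows). Filled points passed an adjusted p under 0.05 in limma and open points did not, and the 4 filled points, Ffar4, Slc9a3r1, Clcn2 and Guca2a, lie between 0.25 and 0.86.

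Between the genotypes, 0 of the 9 tested transporters were called, and 1 of them, Slc9a3, had an unadjusted p under 0.05. Over all genes limma called 0 of 13083, while 430 had an unadjusted p under 0.05 (3.29%). Apoe, the gene deleted in KO, was not called either (KO minus WT -1.02, limma adjusted p = 0.782). With diet as a block, WT by title, the limma adjusted p of Apoe was 0.0355. A gene left uncalled without the block may thus still differ between the genotypes. Slc9a3 had the largest difference of the 10, with 9.27 and 8.82 in KO with and without prebiotics, against 8.63 and 8.07 on the WT arrays titled with and without. Both KO arrays lay above both WT arrays, whichever diet the WT arrays had. The KO mean was higher by 0.70 (SE 0.22, 95% interval 0.19 to 1.21, limma adjusted p = 0.999), or 1.62-fold, at place 27 of 13083 from the highest difference down. With diet as a block, the adjusted p of Slc9a3 in limma was 0.0223, at which 0.0611% of genes were higher in KO and 0.0306% lower, and with that block and the WT pair exchanged it was 0.9997. Leaving out 1 array at a time moved the difference of Slc9a3 between 0.42, without the WT array titled without prebiotics, and 0.98, without the WT array titled with them.

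Cftr was the other transporter with both KO arrays above both WT arrays, at 8.92 and 8.79 in KO with and without prebiotics, against 8.71 and 8.50 on the WT arrays titled with and without. Its difference of 0.25 (95% interval -0.05 to 0.54, limma adjusted p = 0.999) did not pass. Leaving out 1 array moved it between 0.14, without the WT array titled without prebiotics, and 0.35, without the WT array titled with them. Separation of this kind was seen in 2 of the 9 transporters, and 16.2% of all tested genes had it. In the opposite direction it was seen in 0 of the 9 and in 14% of all genes. The other tested transporters had differences of KO minus WT between -0.05 for Scnn1b and 0.26 for Slc5a8. For Slc5a8 the interval ran from -1.47 to 1.98, because the prebiotic difference enters the error of this comparison. Markers of other cell types also separated the genotypes, with both KO arrays above both WT arrays in 5 of 8 smooth muscle genes (median KO minus WT 0.32), 4 of 8 fibroblast and matrix genes (0.40), 5 of 8 macrophage genes (0.25), 1 of 7 Paneth cell genes (0.98) and 0 of 9 mature colonocyte genes (0.03). Among 5 adipocyte genes 2 were higher in KO in this way (0.03). The reverse order was seen in 3 of 8 goblet cell genes (-0.15) and 3 of 7 B cell genes (-0.36). It was seen in 3 of 8 general epithelial genes (-0.03), 1 of 7 proliferating cell genes (-0.09) and 1 of 9 colonocyte genes. Of all tested genes, 16.2% had the first order and 14% the reverse. In limma 0 of these markers were called between the genotypes without a diet block. With that block the limma adjusted p was 0.0213 for the matrix gene Dcn (0.77) and 0.0234 for the smooth muscle gene Cnn1 (0.64). For the colonocyte gene Ceacam20 (-0.83), lower in KO, it was 0.0355. With the block and the WT pair exchanged limma called 0 genes. The part of these markers in the values of Slc9a3 and Cftr was not tested.

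**Figure D4:**
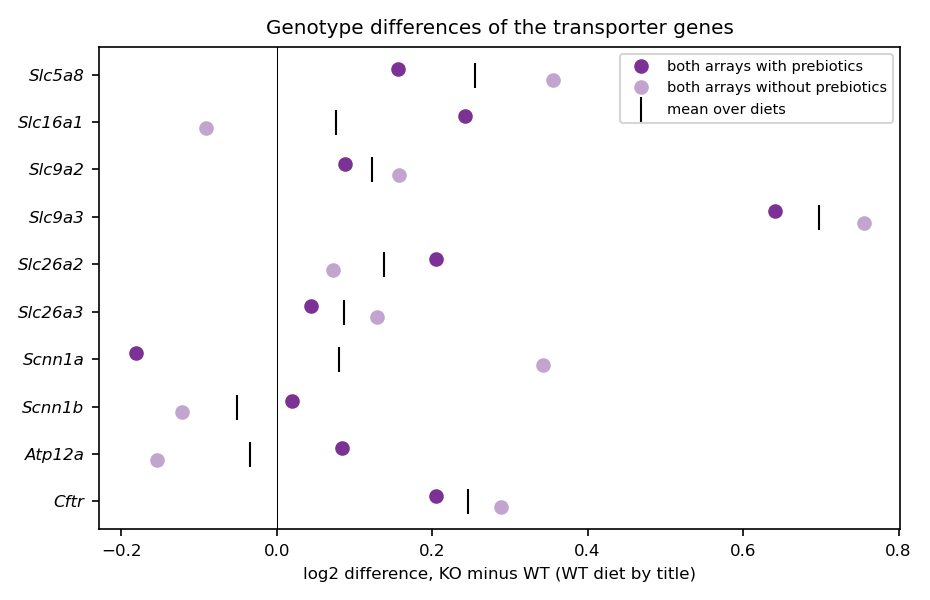
Log2 difference KO minus WT (x axis) for each of the 10 transporters (rows), with 1 point for the arrays with prebiotics and 1 for those without, WT by title, and a bar at the mean. Slc9a3 stands to the right of the others at 0.64 and 0.76, and Slc16a1, Scnn1a, Scnn1b and Atp12a have points on both sides of 0.

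The arrays measured whole caecal tissue, in which fewer cells of a type and less RNA per cell cannot be told apart. Marker genes of several cell types moved with the transporters. For the marker counts here and below, 34.1% of all genes tested were higher in both pairs and 25.1% lower in both. By limma 0.994% of all genes tested were called higher and 0.26% lower. Of 9 tested markers of mature colonocytes, the absorptive cells of the large bowel, 9 were higher in both pairs and 4 were called: Tmigd1 (1.22), Ceacam20 (0.66), Car4 (0.59) and Slc20a1 (0.41). Their summed linear signal was 18909 and 15467 in KO with and without prebiotics, against 17437 and 15208 on the WT arrays titled with and without. In this sum and those below, the probe sets with the highest values weigh most. Among the colonocyte markers Car1 had 12.52 in KO with prebiotics, and among the enterocyte markers below Fabp2 had 11.66. Their prebiotic differences over both genotypes were 0.15 and 0.08. General epithelial markers were higher in both pairs in 3 of 8 and lower in 3, with a median of 0.04 and 1 call, Elf3 (0.55). Their summed signal was 6737 and 6422 in KO with and without, against 6872 and 6948 on the WT arrays titled with and without. The part of these markers in the transporter results was not tested.

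Markers of small intestinal enterocytes were higher in both pairs in 12 of 13 tested, and 3 were called: Slc10a2 (2.65), Alpi (1.53) and Anpep (0.93). The uncalled sucrase-isomaltase gene Sis had 1.01. Lactase (Lct) stayed between 2.66 and 2.77, at background on every array. Their summed signal was 5312 and 4195 in KO with and without prebiotics, against 5203 and 4492 on the WT arrays titled with and without. The median of the 7 tested Paneth cell markers was 2.27 in the KO pair and -0.05 in the WT pair, a difference between pairs that was not tested, and over both genotypes limma called 0 of them, with 2 at an unadjusted p under 0.05. Defa21 had the largest prebiotic difference of this list over both genotypes. It had 8.18 and 3.08 in KO with and without, against 2.98 and 3.37 on the WT arrays titled with and without. The list was not uniform: Ang4, an antimicrobial of these cells, had 5.71 and 7.42 in KO with and without, against 6.84 and 6.16 on the WT arrays titled with and without, and Mmp7 had a difference of 0.02 in the KO pair and -0.05 in the WT pair. The summed Paneth signal was 740.3 and 228.4 in KO with and without, against 170.7 and 141.7 on the WT arrays titled with and without.

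Enteroendocrine markers had a median of 0.65, with 3 of 7 called, Nts (2.09), Gcg (1.44) and Cck (1.22). Of the 7, 6 were higher in both pairs and 1, the granule gene Chgb (-0.17), was lower in both. The summed enteroendocrine signal was 571.6 and 292.1 in KO with and without prebiotics, against 563.9 and 251.0 on the WT arrays titled with and without. Proliferating cell markers were lower in both pairs in 5 of 7, with a median of -0.17 and 0 called. Smooth muscle markers were lower in both pairs in 6 of 8 (median -0.22), and Myl9 (-0.45) and Myh11 (-0.41) were called. Goblet cell markers had a median of -0.08 with 0 of 8 called. For fibroblast and matrix genes the median was 0.31, with Col1a1 (1.19) called of 8. Of these, 6 were higher in both pairs and 1, Pdgfra (-0.42), was lower in both. Macrophage markers had a median of 0.24 with 0 of 8 called, and B cell markers -0.36 with 0 of 7 called. Adipocyte markers had a median of -0.37, with Fabp4 (-1.09) and Lpl (-0.87) called of 5. In both pairs 3 of the 5 were lower and 2, Plin1 (0.13) and Pparg (0.01), higher. Adipoq and Lep were below the limit for testing. The part of these lists in the transporter results was not tested either.

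**Figure D5:**
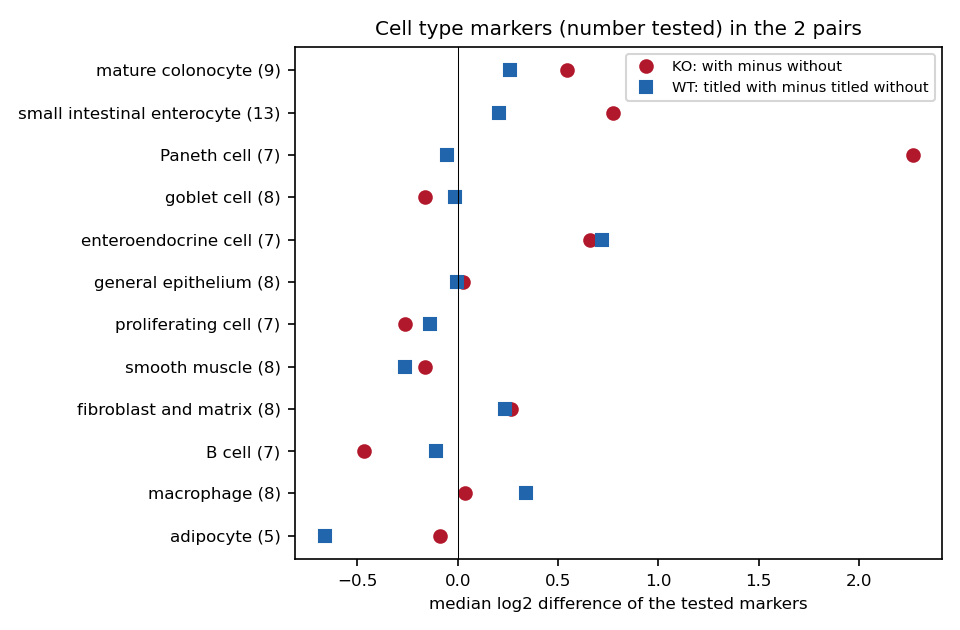
Median log2 difference (x axis) of the tested markers of 12 cell types (rows, number tested in brackets) with minus without prebiotics in KO (circles) and titled with minus titled without in WT (squares). Colonocyte, enterocyte and enteroendocrine markers lie to the right of 0 in both pairs. So do fibroblast and matrix genes at 0.27 in KO and 0.24 in WT and macrophage markers at 0.04 and 0.34. Paneth cell markers lie to the right of 0 in KO, at 2.27, and to the left in WT, at -0.05.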

How the data were processed

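Per the labels, each array carried RNA pooled from 6 mice. Per the submitters' processing notes, the deposited log2 values come from Affymetrix Expression Console and RMA, with no version given. RMA subtracts background, equalises the arrays and summarises probes, which compresses differences near background. The log base is that of RMA. The array's genome build is not given in the sources used here.

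Of 41345 probe sets, 23521 had 1 symbol, 1814 several and 16010 none. The probe set with the highest mean stood for its gene. In limma 3.58.1 (R 4.3.3; lmFit, eBayes with trend), prebiotics were tested with genotype as covariate (1 residual degree of freedom) and genotype without covariate (2), two-sided, adjusted by Benjamini-Hochberg over 13083 genes, and called at 0.05. Pairs of single arrays have no test, so 2-fold differences are counted there. The fits were tested on simulated data.

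Named were the 10 transporters, Apoe, called genes and up to 4 others per list, and the 5 genes nearest to Slc5a8, predicted genes passed over. The transporters and lists were chosen with earlier results of these data known. Alternatives covered the filter, probe set choice, scaling, trend, the WT diets, a diet block and leaving out arrays.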

Additional observations from a re-analysis of the deposited data

Results flagged for a closer look

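For 3 of the 10 transporters the prebiotic difference had opposite signs in the 2 genotypes, with the WT arrays by title, and for 4 the genotype difference had opposite signs in the 2 diets. Each side is 1 array minus 1 array, so none of these differences was tested.

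Scnn1a, the alpha subunit of the sodium channel, had a log2 difference with minus without prebiotics of -0.19 in KO and 0.34 in WT, so that the KO difference minus the WT difference was -0.52. Its KO minus WT difference was -0.18 with prebiotics and 0.34 without. Slc16a1 had 0.33 in KO and -0.0043 in WT, a gap of 0.33, and its genotype difference was 0.24 with prebiotics and -0.09 without. Atp12a had 0.13 in KO and -0.11 in WT, a gap of 0.24 between values below the array median, and a genotype difference of 0.08 with prebiotics and -0.15 without. Scnn1b had a genotype difference of 0.02 with prebiotics and -0.12 without, a gap of 0.14 close to background.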

How the results depend on the processing

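Without the expression filter limma called 68 genes higher with prebiotics and 17 lower, in place of 130 and 34. Cyclic loess gave 52 lower, centring on the median 216 and 108, and no trend 21 and 4. Of the 3 transporters called for prebiotics, 1 was called without the trend, Slc5a8, and 2 without the filter, Slc5a8 and Slc26a3; Slc5a8 was called in all 6 of these settings that keep the titles, the others being the 75th percentile filter and the mean over probe sets. Over these 6 settings the difference of Slc5a8 was between 1.91 and 1.94. Only the scaling settings, cyclic loess and centring, could move it. Slc5a8 has 1 probe set, and the filter and the trend do not enter a difference. Of the other transport genes, Slc9a3r1 was called in 5 of the 6, Clcn2 and Guca2a in 4 and Ffar4 in 3. The cause of these changes was not tested.

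With the WT pair exchanged 0 genes were called higher, 0 lower and 0 transporters. The reversed differences were -0.099 for Slc5a8, -0.035 for Slc9a2, -0.057 for Slc9a3, -0.043 for Slc26a3, -0.26 for Scnn1a and -0.042 for Cftr. This follows from the construction, which turns the sign of the WT pair. In that pair the counts at 2-fold become 22 higher and 41 lower, and Slc5a8 -2.04.

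For genotype, diet as a block gave 8 genes higher, 4 lower and 1 transporter called. Leaving out 1 array gave 0 to 4 genes higher, the 4 without the KO array kept without prebiotics. The differences ran from -0.77 to 1.28 for Slc5a8, -0.088 to 0.24 for Slc16a1, -0.042 to 0.29 for Slc9a2, -0.026 to 0.30 for Slc26a2, -0.22 to 0.40 for Slc26a3, -0.087 to 0.25 for Scnn1a, -0.19 to 0.093 for Scnn1b and 0.14 to 0.35 for Cftr. Leaving out 1 array for prebiotics leaves the difference of the other pair with no test, and for the called transporters these were 1.84 to 2.04 (Slc5a8), 0.54 to 0.62 (Slc26a3) and 0.45 to 0.56 (Slc9a3). The labels give no replicate numbers that could pair arrays; genotype was a term of the prebiotic fit and diet a block in the alternative above. With 1 pool per group, signal near background and 4 arrays limit all values.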
